A study of Mus musculus with 6 samples.

Results

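The collagen genes were described in cochleae, the hearing organs of the inner ear, from mice on postnatal day 3. Members were the protein-coding genes whose symbol is Col, a number, the letter a and a number. This gave 44 genes of the 55769 features in the files, and 39 of the 44 passed the filter on low values (1 TPM in at least 3 libraries) and were tested. The untested members were Col17a1, Col10a1, Col19a1, Col6a4 and Col6a5, none of which exceeded 0.75 TPM in any library. Total RNA was sequenced in 6 libraries. Plscr5-/- cochleae gave 3 libraries, here called knockout, and wild type cochleae gave the other 3. Plscr5 encodes a member of the phospholipid scramblase family. The labels give neither the altered part of the gene, the strain, nor the number of cochleae or animals behind a library, and the p-values therefore rest on the spread among 6 libraries alone, part of which may be technical. Values are in TPM, which is abundance per transcript length with the same total in each library, and the sequencing depth is unknown. Comparisons of level between genes rest on an annotation and read assignment that the sources used here do not give.

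Collagens are trimers of chains that wind around each other as a triple helix, in which glycine recurs at a fixed spacing. Fibrillar collagens form the load-bearing fibrils of bone, cartilage and connective tissue, and FACIT collagens, which have interrupted helices, sit on the surface of such fibrils. Type IV collagens form the sheet of basement membranes, and type VI collagen forms beaded filaments around cells. In the cochlea, types II, IX and XI build the fibrils of the tectorial membrane, the gel above the hair cells, as well as cartilage, and changes in Col9a1 and Col11a2 are known to cause hearing loss in mice and people.

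Plscr5, the targeted gene, was lower in every knockout library but not absent. It stood at 4.30, 3.69 and 5.01 TPM in knockout cochleae, against 14.53, 12.42 and 9.27 TPM in wild-type cochleae (log2 fold change -1.28, limma adjusted p = 0.290). Wild type replicate 3 stood apart in nerve genes. The summed level of 7 Schwann cell markers was 2103, 1408 and 1366 TPM in knockout cochleae, against 1239, 1342 and 473 TPM in wild-type cochleae, the last value being that library. The 7 neuron markers summed to 755, 696 and 549 TPM in knockout cochleae, against 456, 578 and 165 TPM in wild-type cochleae. Markers of hair cells (273 to 322 TPM in knockout cochleae, 300.01 to 332 TPM in wild-type cochleae, 6 genes) were present in all libraries, and 5 skeletal muscle markers summed to at most 4.76 TPM.

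Stretches before annotated transcript starts are shown for Col9a1 and Col11a2, whose loss is linked to deafness, and for Col6a1 and Col6a2, both on chromosome 10, which had the lowest p-values of the family. Sequence and positions come from RefSeq on GRCm38.p6, and 35 of the 44 genes matched an entry. Those that did not were Col1a1, Col2a1, Col4a3, Col5a2, Col9a3, Col12a1, Col14a1, Col22a1 and Col26a1. Each run is written from 5′ to 3′ on the gene's own strand and ends before the transcript start or before the first exon base that GENCODE M21 annotates upstream of it, with at most 30 bases of annotated exon. Capitals mark, on either strand, the letters GGGCGG, those of the CCAAT box and those of the TATAAA box.
Col9a1, first start (chr1:24177360-24177609, plus strand): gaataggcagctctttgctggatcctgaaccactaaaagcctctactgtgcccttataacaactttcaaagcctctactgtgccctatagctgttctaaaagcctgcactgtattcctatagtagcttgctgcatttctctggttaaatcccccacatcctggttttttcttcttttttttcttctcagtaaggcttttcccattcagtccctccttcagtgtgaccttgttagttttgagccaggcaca
Col9a1, second start (chr1:24194953-24195202, plus strand): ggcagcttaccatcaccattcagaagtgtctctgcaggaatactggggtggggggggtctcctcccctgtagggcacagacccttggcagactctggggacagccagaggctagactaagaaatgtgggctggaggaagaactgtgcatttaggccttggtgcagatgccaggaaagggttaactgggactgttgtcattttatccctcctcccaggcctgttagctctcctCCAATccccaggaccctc
Col11a2 (chr17:34038888-34039137, plus strand): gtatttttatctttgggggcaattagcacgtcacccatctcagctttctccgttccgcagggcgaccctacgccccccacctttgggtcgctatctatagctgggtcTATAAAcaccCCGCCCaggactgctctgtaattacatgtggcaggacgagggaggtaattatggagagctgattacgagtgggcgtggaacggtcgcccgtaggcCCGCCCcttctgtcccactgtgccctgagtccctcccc
Col6a1 (chr10:76726169-76726294, minus strand): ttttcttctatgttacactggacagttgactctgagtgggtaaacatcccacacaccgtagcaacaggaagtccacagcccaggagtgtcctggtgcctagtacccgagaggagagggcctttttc
Col6a2 (chr10:76623631-76623880, minus strand): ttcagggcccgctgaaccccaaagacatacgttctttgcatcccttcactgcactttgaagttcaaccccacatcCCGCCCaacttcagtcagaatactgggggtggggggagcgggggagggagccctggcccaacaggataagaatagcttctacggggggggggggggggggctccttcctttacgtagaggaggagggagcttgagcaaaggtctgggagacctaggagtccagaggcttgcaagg
Col9a1 has 2 annotated starts 17593 bases apart, the first of which gives the long form of the protein, and values per gene do not separate the forms. Over the 250 bases before the start, GGGCGG, the core of the GC box, stood on either strand in 22 of 38 collagen windows (57.9%), against 32.7% of all 32851 windows. CCAAT stood in 13 of 38 (34.2%, against 33.8%), TATAAA in 5 of 38 (13.2%, against 12.4%), and ACAATG, letters of a motif of SOX factors, in 1 of 38 (2.63%, against 10.7%), that of Col28a1. The median GC content was 59% over the collagen windows and 52.4% over all windows, and its part in these shares was not tested. Col9a1, Col6a2 and Col18a1, with 2 annotated starts each, count with both windows. The motifs share at most a few letters where they overlap, and a match is a match of letters only. The Col11a2 window held TATAAA once and GGGCGG 2 times on the opposite strand, the Col6a2 run, before the upstream of its 2 annotated starts, held GGGCGG 1 time on the opposite strand, and the Col6a1 run held none of the motifs.

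Together the collagen genes held from 1.05% to 1.33% of all TPM in a library. Their sum was 12163, 10683 and 10922 TPM in knockout cochleae, against 10496, 11569 and 13269 TPM in wild-type cochleae. The groups overlapped, and the log2 ratio of the sums was -0.06, and 0.028 without wild type replicate 3 (exact two-sided permutation p = 0.7, where 3 libraries against 3 can give no p below 0.1). Levels spanned a wide range among members. Of the 44, 5 genes averaged at least 1000 TPM, 14 at least 100 TPM, 30 at least 10 TPM and 39 at least 1 TPM. The chains of types II, IX and XI (Col2a1, Col9a1, Col9a2, Col9a3, Col11a1 and Col11a2) made up 77.1% of the collagen sum over all libraries. By class, fibrillar genes made up 46.2%, FACIT genes 45.0%, multiplexins 2.98%, type IV genes 2.83% and type VI genes 1.13%. Single genes were between 1.16 (Col8a1) and 5.82 times (Col28a1) as high in their highest library as in their lowest, among the 39 tested genes.

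**Figure D1:**
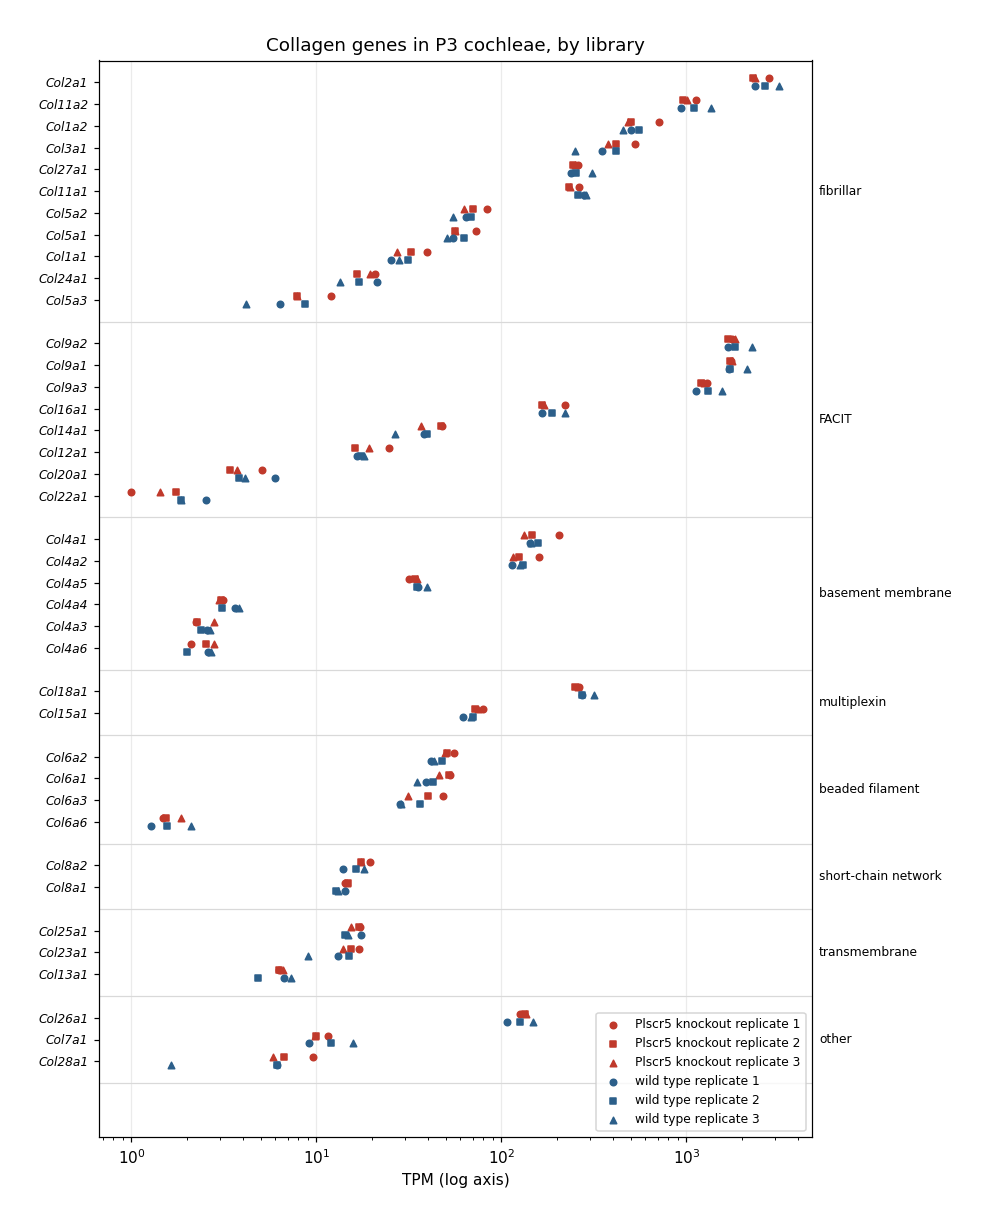
TPM (log axis) of the 39 tested collagen genes, by class and in order of mean level, with 1 point per library (knockout in red above, wild type in blue below, shapes for replicates). Col2a1, Col9a1, Col9a2, Col9a3 and Col11a2 lie near or above 1000 TPM in every library, and in most genes the genotypes overlap.

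Between genotypes, 0 of the 39 tested collagen genes passed the threshold of an adjusted p under 0.05 in limma with Benjamini-Hochberg adjustment over all 17097 tested features, where 0% of features passed as higher and 0.0117% as lower. The lowest adjusted p of a collagen gene was 0.989. Before adjustment, limma gave 3 collagen genes a p under 0.05. These were Col6a1 and Col6a2 with higher values in the knockout, as for 2.15% of all features, and Col11a1 with lower values, as for 1.85%. The count of 3 was 1, Col6a1, when either wild type replicate 3 or knockout replicate 2 was left out, 5 without knockout replicate 3 and 8 on leaving out wild type replicate 2. The share of all features with such a p moved as well, and was 4.63%, 2.1%, 3.06% and 6.22% in those 4 fits, against 4.0% with all libraries. The groups did not overlap at 6 genes (15.4%, against 9.33%), which were Col6a1, Col6a2 and Col15a1 with the knockout higher (4.60% of all features) and Col18a1, Col4a5 and Col22a1 with the knockout lower (4.74%). A log2 fold change above 0 (knockout minus wild type, from log2(TPM + 1) values) was found for 24 of 39 genes (61.5%, against 46.6%), counting Col6a6 at 0.00, with a median of 0.09 beside -0.01 over all features. It was found for 29 of 39 without wild type replicate 3, and the median lay between 0.026 and 0.11 over the 6 fits that left out a library. This scale understates changes of genes with low values. On it, the 95% confidence interval lay within 2-fold either way for 37 of the 39 genes, and within 1.5-fold for 29. For genes with low values these bounds are therefore not folds of TPM. The exceptions at 2-fold were Col5a3 and Col28a1.

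**Figure D2:**
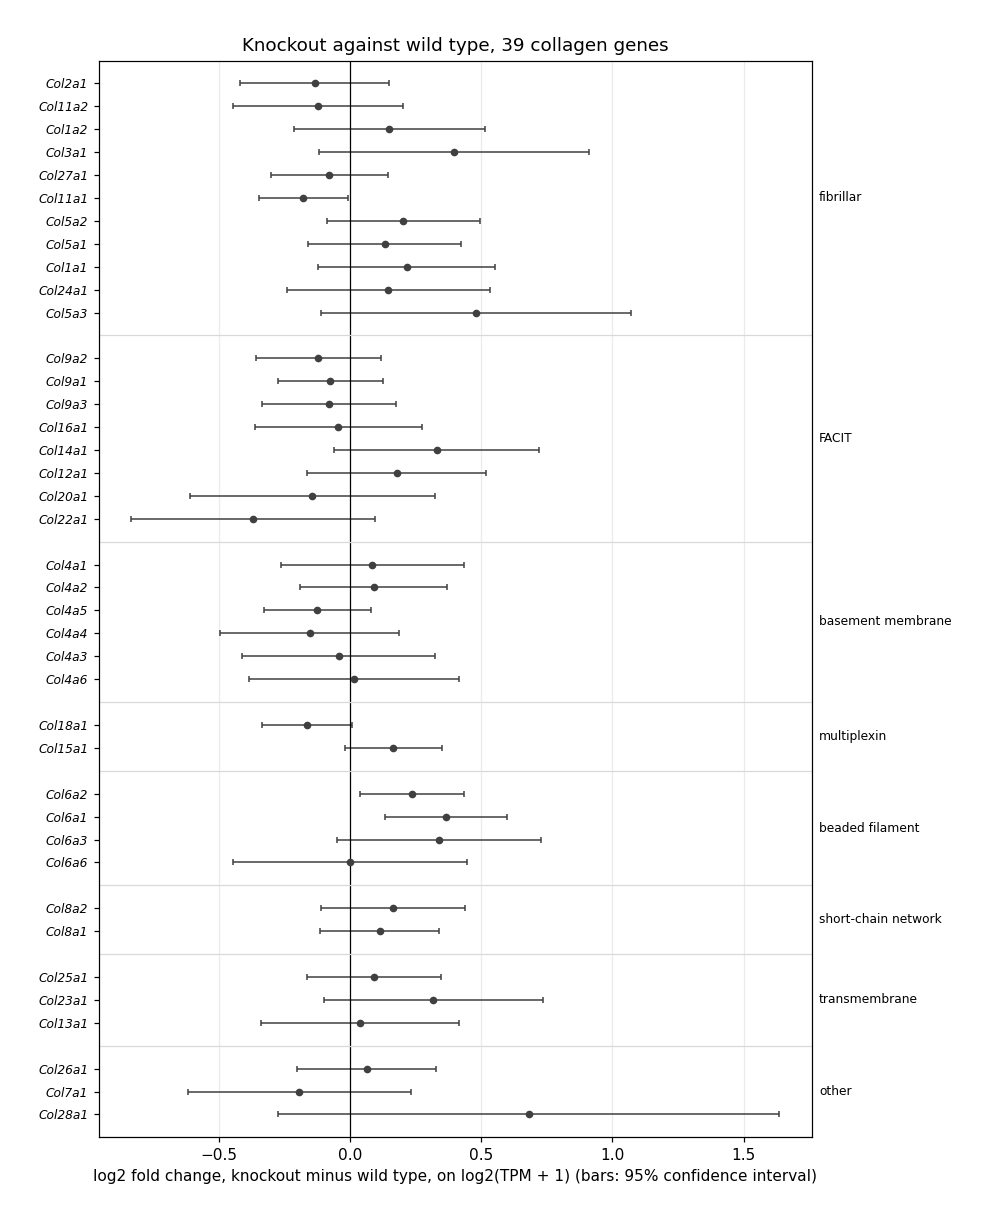
Log2 fold change of each tested collagen gene (knockout minus wild type, from log2(TPM + 1) values), with its 95% confidence interval from limma. The intervals of Col6a1, Col6a2 and Col11a1 leave out 0 before adjustment, and those of Col28a1 and Col5a3 are among the widest.

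Col6a1, Col6a2 and Col6a3, the chains that assemble into type VI collagen, were each higher in mean in the knockout. Col6a1 (ENSMUSG00000001119) stood at 52.70, 52.19 and 46.07 TPM in knockout cochleae, against 39.28, 42.52 and 34.89 TPM in wild-type cochleae. All 3 knockout libraries lay above all wild-type libraries (log2 fold change 0.37, SE 0.10, 95% confidence interval 0.13 to 0.60, limma adjusted p = 0.989). When single libraries were left out, its log2 fold change ran from 0.29 to 0.43 and its p before adjustment stayed under 0.05 each time. Those fits reuse the libraries in which Col6a1 had the lowest p of the family, so they are no separate test.

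Col6a2 (ENSMUSG00000020241) stood at 55.42, 51.05 and 49.80 TPM in knockout cochleae, against 41.64, 47.60 and 42.97 TPM in wild-type cochleae, again without overlap (log2 fold change 0.24, SE 0.09, limma adjusted p = 0.989). Col6a3, the largest chain, stood at 48.36, 40.22 and 31.15 TPM in knockout cochleae, against 28.45, 36.29 and 28.51 TPM in wild-type cochleae. Here the groups overlapped, since knockout replicate 3 lay below wild type replicate 2 (log2 fold change 0.34, SE 0.17, and 0.19 without knockout replicate 1). The sum of the type VI genes was 158, 145 and 129 TPM in knockout cochleae, against 111, 128 and 109 TPM in wild-type cochleae, a log2 ratio of 0.31 (exact two-sided permutation p = 0.1, the smallest possible). Leaving out single libraries gave 0.24 to 0.39. Col6a2 was 0.978 to 1.08 times Col6a1 in knockout libraries and 1.06 to 1.23 times in wild-type libraries, and Col6a3 was 0.676 to 0.918 times Col6a1 in knockout libraries and 0.724 to 0.853 times in wild-type libraries. Of the chains that can replace Col6a3, Col6a6 stood at 1.62 ± 0.21 TPM in knockout cochleae and 1.64 ± 0.42 TPM in wild-type cochleae (SD, n = 3 each, as for all such values here), while Col6a4 and Col6a5 did not exceed 0.11 TPM in any library. Mesenchyme and fibroblast markers, listed because such cells make type VI collagen, summed to 6157 to 6471 TPM in knockout cochleae and 6305 to 7091 TPM in wild-type cochleae. Otor alone, at 4975 to 5819 TPM over the libraries, held most of this sum. Of the 8 genes, 4 had a log2 fold change above 0, and none was at 0 TPM. The Schwann cell markers above were higher in the knockout for 6 of 7 genes, with none at 0. The part of either cell type in the type VI values was not tested, and in whole cochleae a change in cell number and a change in RNA per cell cannot be told apart.

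**Figure D3:**
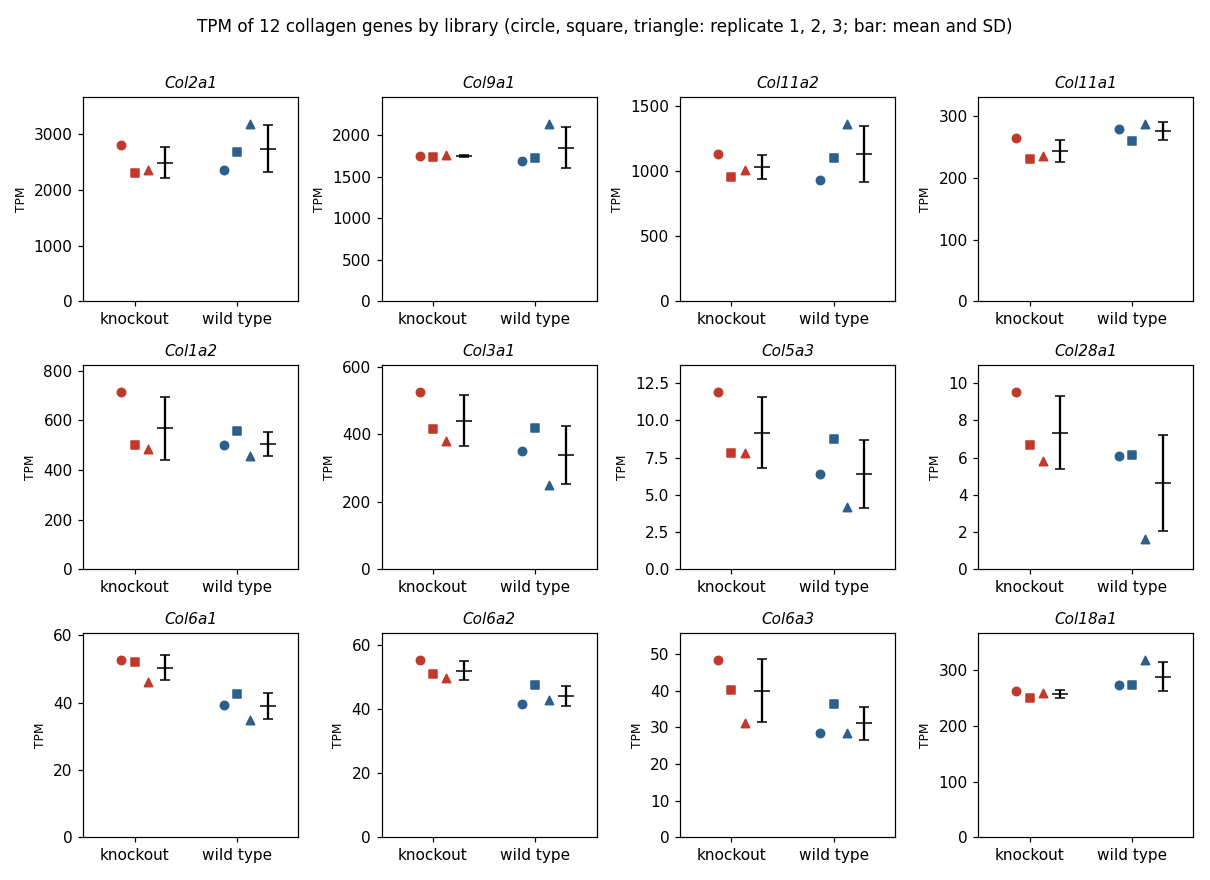
TPM of 12 collagen genes by library, knockout left of wild type, with axes that start at 0, 1 point per replicate and the mean and SD beside them. Col6a1, Col6a2 and Col18a1 do not overlap between genotypes. Wild type replicate 3 (triangle) is the highest point for Col2a1, Col9a1 and Col11a2 and the lowest for Col3a1, Col5a3 and Col28a1.

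The fibrillar and FACIT chains of the tectorial membrane and of cartilage held the 5 highest collagen levels and were slightly lower in mean in the knockout, and none passed after adjustment. Col2a1 (ENSMUSG00000022483), the single chain of type II collagen, stood at 2807, 2301 and 2360 TPM in knockout cochleae, against 2363, 2673 and 3183 TPM in wild-type cochleae (log2 fold change -0.13, SE 0.12, and -0.020 without wild type replicate 3). It ranked 31 among all 55769 features by mean level. The groups overlapped, with wild type replicate 3 the highest library.

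Type IX collagen, a FACIT that coats type II fibrils, is built from 1 chain each of Col9a1, Col9a2 and Col9a3. Col9a1 (ENSMUSG00000026147) stood at 1748, 1731 and 1760 TPM in knockout cochleae, against 1694, 1719 and 2136 TPM in wild-type cochleae (log2 fold change -0.07, SE 0.09). Its knockout libraries differed by a coefficient of variation of 0.819%, the lowest of any tested collagen gene in either group, and all 3 lay between wild type replicates 2 and 3. Col9a2 (ENSMUSG00000028626) stood at 1764, 1683 and 1826 TPM in knockout cochleae, against 1678, 1836 and 2256 TPM in wild-type cochleae. Col9a3 (ENSMUSG00000027570) stood at 1294, 1204 and 1242 TPM in knockout cochleae, against 1122, 1305 and 1561 TPM in wild-type cochleae. Both had overlapping groups, with log2 fold changes of -0.12 and -0.08. In each library Col9a2 was 0.972 to 1.07 times Col9a1, and Col9a3 was 0.663 to 0.759 times Col9a1.

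Col11a2 (ENSMUSG00000024330), a chain of type XI collagen, which lies inside type II fibrils, stood at 1133, 954.9 and 1006 TPM in knockout cochleae, against 934, 1101 and 1364 TPM in wild-type cochleae. Its groups overlapped (log2 fold change -0.12, SE 0.14). Its partner Col11a1 (ENSMUSG00000027966) stood at 264, 231 and 235 TPM in knockout cochleae, against 279, 259 and 287 TPM in wild-type cochleae. Knockout replicate 1 lay above wild type replicate 2, so that these groups overlapped too (log2 fold change -0.18, SE 0.07, 95% confidence interval -0.35 to -0.01, limma adjusted p = 0.989). Without wild type replicate 3 the fold changes of Col9a1, Col9a2, Col9a3 and Col11a2 were 0.033, 0.0012, 0.042 and 0.0204, so that their sign turned, while that of Col11a1 ran from -0.24 to -0.14 over all 6 such fits. Over the chains of types II, IX and XI the sum was 9010, 8105 and 8428 TPM in knockout cochleae, against 8070, 8894 and 10788 TPM in wild-type cochleae (log2 ratio -0.11, and 0.01 without wild type replicate 3).

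Markers of the tectorial membrane other than collagens summed to 6438 to 6749 TPM in knockout cochleae and 7086 to 8525 TPM in wild-type cochleae, and 5 of 5 tested genes were lower in mean in the knockout, none of them past the threshold after adjustment. A sixth, Ceacam16, did not exceed 0.23 TPM. Chondrocyte markers summed to 1400 to 1572 TPM in knockout cochleae and 1494 to 1775 TPM in wild-type cochleae, with 7 of 9 tested genes lower in mean. Of the 11 listed, Cnmd held most of the sum, Acan, a core proteoglycan of cartilage, was at 0.69 to 1.57 TPM, and Matn3 and Comp did not exceed 0.48 TPM. In both lists wild type replicate 3 was the highest library, as it was for the chains of types II, IX and XI. The tectorial membrane sums did not overlap between genotypes (exact two-sided permutation p = 0.1), while the chondrocyte sums and those of types II, IX and XI did. The part of these tissues in the collagen values was not tested. Col10a1, which marks hypertrophic cartilage, stood at 0.16, 0.12 and 0.02 TPM in knockout cochleae, against 0.03, 0.05 and 0.03 TPM in wild-type cochleae. Col27a1, a fibrillar chain of cartilage, stood at 251 ± 8 TPM in knockout cochleae and 267 ± 37 TPM in wild-type cochleae.

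The fibrillar chains of general connective tissue were higher in mean in the knockout, and none passed after adjustment. Col1a2, the second chain of type I collagen, stood at 714, 500 and 486 TPM in knockout cochleae, against 499.7, 555 and 457 TPM in wild-type cochleae. The groups overlapped, and knockout replicate 1 alone lay above all wild-type libraries (log2 fold change 0.15, SE 0.15, and -0.027 without that library). Col3a1, the fibrillar collagen of soft tissue and vessel walls, stood at 526, 416 and 379 TPM in knockout cochleae, against 349, 419 and 249 TPM in wild-type cochleae (log2 fold change 0.40, SE 0.21). The groups overlapped, and without wild type replicate 3 its log2 fold change was 0.19. Col5a1 and Col5a2, chains of type V collagen that start type I fibrils, stood at 61.9 ± 9.8 and 72.3 ± 10.6 TPM in knockout cochleae, against 56.1 ± 6.0 and 62.5 ± 7.2 TPM in wild-type cochleae. Col5a3 stood at 11.92, 7.83 and 7.81 TPM in knockout cochleae, against 6.37, 8.72 and 4.16 TPM in wild-type cochleae, overlapping (log2 fold change 0.48, SE 0.26). It was 0.24 without wild type replicate 3. Col24a1 stood at 19.0 ± 2.2 TPM in knockout cochleae and 17.3 ± 4.0 TPM in wild-type cochleae.

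Col1a1 and Col1a2, the genes of type I collagen, stood far apart in level. In the protein, chains from Col1a1 outnumber those from Col1a2, but Col1a1 had 39.80, 32.41 and 27.23 TPM in knockout cochleae, against 25.18, 31.18 and 28.11 TPM in wild-type cochleae. Col1a2 was thus 15.4 to 17.9 times Col1a1 in knockout libraries and 16.3 to 19.8 times in wild-type libraries, and the imbalance was present in all 6 libraries. The sources used here do not give the annotation and read assignment behind the deposited values, and the part of these in the low Col1a1 value was not tested. Osteoblast markers, which share bone with type I collagen, summed to 26.7 to 29.97 TPM in knockout cochleae and 24.5 to 28.1 TPM in wild-type cochleae, with 6 of 7 tested genes higher and Bglap2 listed at 0 in 5 libraries. Col1a1 had a log2 fold change of 0.22 (SE 0.15), which was 0.080 without knockout replicate 1, and the part of osteoblasts in it was not tested.

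**Figure D4:**
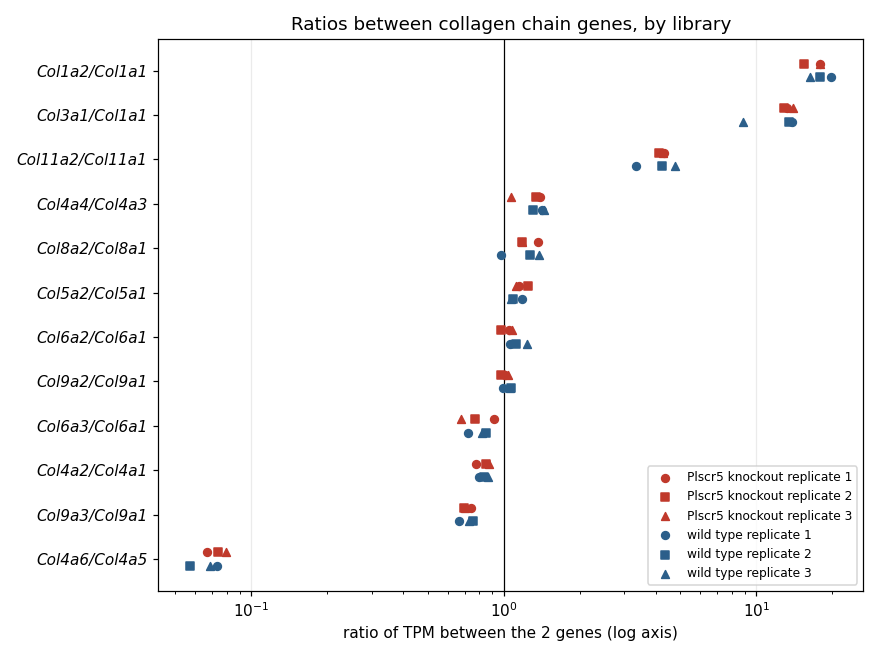
Ratio of TPM (log axis) between pairs of chain genes in each library, knockout (red) above wild type (blue), with a line at equal levels. Col1a2 lies 15.4 to 19.8 times above Col1a1 and Col4a6 lies well below Col4a5 in every library, while the chains of types V, VI and IX lie near 1.

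For 12 pairs of chain genes, the ratio between the 2 genes was compared between genotypes, and the groups overlapped at all 12. The exact two-sided permutation p ran from 0.2, for Col6a2 over Col6a1, to 1, and 0.1 is the smallest possible, so that no pair could pass 0.05 in this design. Col11a2 was 4.13 to 4.30 times Col11a1 in knockout libraries and 3.35 to 4.75 times in wild-type libraries. Col3a1 was 12.8 to 13.9 times Col1a1 in knockout libraries and 8.85 to 13.9 times in wild-type libraries, the lowest value being wild type replicate 3.

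Among the other FACIT genes, 2 of 8 tested members of the class had a positive log2 fold change, Col12a1 and Col14a1, which bind fibrils of soft tissue. Col14a1 stood at 43.8 ± 6.2 TPM in knockout cochleae and 34.9 ± 7.1 TPM in wild-type cochleae (log2 fold change 0.33, SE 0.17, and 0.15 without wild type replicate 3), and Col12a1 at 19.98 ± 4.27 TPM in knockout cochleae and 17.3 ± 0.8 TPM in wild-type cochleae. Col16a1 stood at 186 ± 31 TPM in knockout cochleae and 191 ± 27 TPM in wild-type cochleae, and Col20a1 at 4.09 ± 0.89 TPM in knockout cochleae and 4.64 ± 1.18 TPM in wild-type cochleae. Col22a1, a collagen of tissue junctions such as that of muscle and tendon, stood at 1.00, 1.75 and 1.43 TPM in knockout cochleae, against 2.53, 1.85 and 1.85 TPM in wild-type cochleae. Its groups did not overlap, though knockout replicate 2 differed by little from wild type replicates 2 and 3. The log2 fold change was -0.37 (SE 0.20, limma adjusted p = 0.989), and -0.24 without knockout replicate 1. Col19a1 did not exceed 0.12 TPM.

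Of the 6 type IV genes, 3 were higher and 3 lower in mean, and none passed the test. Col4a1 and Col4a2, which form the common basement membrane trimer, are annotated on opposite strands with starts 21 bases apart. Col4a1 stood at 204, 146 and 132 TPM in knockout cochleae, against 143, 157 and 145 TPM in wild-type cochleae, and Col4a2 stood at 159, 124 and 115 TPM in knockout cochleae, against 114, 131 and 126 TPM in wild-type cochleae. Both groups overlapped, with knockout replicate 1 alone above the wild-type libraries, and the log2 fold changes of 0.09 and 0.09 became -0.098 and -0.045 without it. Across the 6 libraries Col4a2 was 0.78 to 0.873 times Col4a1.

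Col4a5, a chain whose human counterpart is mutated in Alport syndrome with hearing loss, stood at 31.49, 33.95 and 34.97 TPM in knockout cochleae, against 35.30, 35.00 and 39.46 TPM in wild-type cochleae. Its groups did not overlap, though knockout replicate 3 and wild type replicate 2 differed by little (log2 fold change -0.12, SE 0.09, and -0.070 without wild type replicate 3, limma adjusted p = 0.989). Col4a6 has its start annotated 1343 bases from that of Col4a5, and stood at 2.47 ± 0.34 TPM in knockout cochleae and 2.43 ± 0.37 TPM in wild-type cochleae. Col4a6 was 0.0667 to 0.0795 times Col4a5 in knockout libraries and 0.0574 to 0.0731 times in wild-type libraries. Col4a3 and Col4a4, the partners of Col4a5 in the mature inner ear and kidney, stood at 2.43 ± 0.31 and 3.05 ± 0.07 TPM in knockout cochleae, against 2.52 ± 0.14 and 3.51 ± 0.37 TPM in wild-type cochleae.

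The multiplexins, basement membrane proteins that end in endostatin-like domains, differed in the sign of their fold change. Col18a1 stood at 262, 249 and 259 TPM in knockout cochleae, against 274, 272 and 318 TPM in wild-type cochleae (log2 fold change -0.16, SE 0.07). Col15a1 stood at 79.65, 71.86 and 74.51 TPM in knockout cochleae, against 62.24, 70.37 and 68.67 TPM in wild-type cochleae (log2 fold change 0.17, SE 0.08). Neither gene's groups overlapped, and both had a limma adjusted p of 0.989. Leaving out single libraries gave -0.20 to -0.09 for Col18a1 and 0.11 to 0.20 for Col15a1. Markers of endothelial cells and pericytes, which lie on such membranes, summed to 308 to 329.8 TPM in knockout cochleae and 309 to 333 TPM in wild-type cochleae, with 5 of 7 higher and none at 0.

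Among the smaller classes, Col8a1 and Col8a2 form the short-chain network under endothelia. Col8a1 stood at 14.19, 14.80 and 14.63 TPM in knockout cochleae, against 14.27, 12.79 and 13.08 TPM in wild-type cochleae, and Col8a2 at 19.37, 17.53 and 17.34 TPM in knockout cochleae, against 13.90, 16.28 and 18.10 TPM in wild-type cochleae. Both overlapped. The sum of this class, with Col10a1, was 32.0 to 33.7 TPM in knockout cochleae and 28.2 to 31.2 TPM in wild-type cochleae, without overlap (exact two-sided permutation p = 0.1).

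The transmembrane collagens are anchored in the cell membrane. Col25a1, known to be needed for motor nerve growth into muscle in mice, stood at 17.11, 16.95 and 15.40 TPM in knockout cochleae, against 17.34, 14.27 and 14.76 TPM in wild-type cochleae. Col23a1 stood at 16.91, 15.39 and 13.94 TPM in knockout cochleae, against 13.12, 15.04 and 8.99 TPM in wild-type cochleae (log2 fold change 0.32, SE 0.18, and 0.12 without wild type replicate 3). Col13a1, found at neuromuscular junctions, stood at 6.25, 6.31 and 6.64 TPM in knockout cochleae, against 6.71, 4.81 and 7.33 TPM in wild-type cochleae. All 3 genes overlapped between genotypes, and Col17a1, of epithelial hemidesmosomes, did not exceed 0.75 TPM.

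Of the remaining members, Col26a1 stood at 126, 134 and 136 TPM in knockout cochleae, against 107, 126 and 148.5 TPM in wild-type cochleae, and Col7a1, of anchoring fibrils under epithelia, at 11.50, 9.89 and 9.81 TPM in knockout cochleae, against 9.16, 11.93 and 15.70 TPM in wild-type cochleae. Both overlapped. Col28a1, known in mice around the Schwann cells of peripheral nerves, had the largest positive fold change of the tested collagen genes. It stood at 9.54, 6.68 and 5.81 TPM in knockout cochleae, against 6.10, 6.13 and 1.64 TPM in wild-type cochleae, with overlap (log2 fold change 0.68, SE 0.40, limma adjusted p = 0.989). Wild type replicate 3, lowest in the sum of the Schwann cell markers, was also lowest in Col28a1, and without that library the log2 fold change was 0.20. It was not lowest in Sox10, a marker on that list, with 186 TPM against 182 TPM in knockout replicate 2. How much of this value came from Schwann cells was not tested.

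Over the 39 tested genes, knockout replicate 1 was the highest library for 18 (46.2%, against 26.1% of all features) and wild type replicate 3 for 14 (35.9%, against 21.6%). Wild type replicate 1 was lowest for 15 (38.5%, against 17.5%), and wild type replicate 3 for 10 (25.6%, against 20.9%). These libraries thus held many of the extreme values on both sides of the comparison.

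Genes that fold, process, bind or break down collagen were counted in the same fit. Over 5 lists with 69 tested genes, 30 were higher and 39 lower by the sign of the log2 fold change (median -0.03), where 46.6% of all features were higher. After adjustment in limma 0 passed, and 4 had an unadjusted p under 0.05, against 684 of all 17097 features (4.0%). In the folding and modification list 5 of 19 genes were higher and 14 lower by this sign (median -0.04). P4ha2, a subunit of the prolyl hydroxylase that stabilises the triple helix, stood at 111, 92.6 and 86.6 TPM in knockout cochleae, against 125, 116 and 110.03 TPM in wild-type cochleae (log2 fold change -0.28, SE 0.10). Plod2, a lysyl hydroxylase that prepares cross-links, stood at 126, 109.7 and 106 TPM in knockout cochleae, against 166, 131 and 123 TPM in wild-type cochleae (log2 fold change -0.29, SE 0.12, and -0.16 without wild type replicate 1). Both overlapped between genotypes and had a limma adjusted p of 0.989.

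In the propeptide cleavage and cross-linking list 5 of 13 genes were higher in mean (median -0.03), with the smallest p for Pcolce2, an enhancer of propeptide cleavage (log2 fold change -0.15, SE 0.09), and Loxl3, a lysyl oxidase (0.15, SE 0.09). Among fibril and basement membrane partners 9 of 17 were higher by log2 fold change (median 0.01). Nid1, which links laminin to type IV collagen, stood at 100.3, 82.7 and 76.8 TPM in knockout cochleae, against 68.1, 78.5 and 62.5 TPM in wild-type cochleae (log2 fold change 0.31, SE 0.12, and 0.20 without knockout replicate 1). Epyc, a proteoglycan gene, stood at 911, 868 and 898 TPM in knockout cochleae, against 1099, 965 and 1024 TPM in wild-type cochleae, without overlap (log2 fold change -0.20, SE 0.06). Among collagen receptors 4 of 11 were higher (median -0.04), with Adgrg6 at -0.19 (-0.090 without wild type replicate 1) and the receptor kinase Ddr1 at -0.11 (-0.056 without knockout replicate 3). Among genes of collagen breakdown 7 of 9 were higher by log2 fold change (median 0.05), with the gelatinase Mmp9 at 0.53 (SE 0.26, and 0.30 without knockout replicate 1) and the protease inhibitor Timp3 at 0.09 (SE 0.06). None of these genes passed after adjustment, each having a limma adjusted p of 0.989.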

How the data were processed

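Total RNA of mouse cochleae was sequenced in 6 libraries, and groups follow the genotype label. A Pou4f3 line named in the labels' extraction text is listed for no library. The values deposited by the authors are TPM, with 2 decimals, read as such because each library sums to 1000000. DESeq2 and the build mm8 stand in the submitters' processing notes with no role, and the sources used here name no aligner, quantifier or annotation. TPM keeps no read depth, so no counting error is given, and a 0 is described as listed at 0.

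Symbols and biotypes came from GENCODE M21, which gave a symbol to 52083 of 55769 IDs. The 17097 features that reached 1 TPM in 3 or more libraries were tested on log2(TPM + 1), a pseudocount of 1, with limma 3.58.1 in R 4.3.3 (intensity trend, robust) and Benjamini-Hochberg adjustment at 0.05. Sums and ratios had an exact two-sided permutation test over libraries. On simulated data with the spread of the 17097 features, the knockout against wild type fit called 35.8% of 1.5-fold, 80.6% of 2-fold and 95.5% of 4-fold changes, with 6 false calls. Changes were placed only in features with a mean log2(TPM + 1) above 3, and the noise was independent between features. The shares therefore do not cover members with low values or shifts of a whole library. Changes of 1.5-fold, 2-fold and 4-fold were placed in 67, 67 and 66 features of the same run, whereas the real fit called 2 features. More true changes make the Benjamini-Hochberg threshold easier to pass, so the shares may be too high for the real fit. In the real fit Plscr5, with a log2 fold change of -1.28, did not pass. Members, classes, lists and the naming rule (every member, with values by library for Col9a1, Col11a2, the 3 highest of each class, those with an unadjusted p under 0.05 and the 3 largest fold changes each way; 2 genes with the smallest p of each pathway list) were chosen with earlier results of these data known. Col1a1 also has values by library, for its ratio to Col1a2. Alternatives were other pseudocounts, filters, scalings and variance settings, a replicate block and each library left out.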

Additional observations from a re-analysis of the deposited data

How the results depend on the processing

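No collagen gene and no gene of the pathway lists passed after adjustment under any of the 13 alternatives, which were other pseudocounts, filters, scalings and variance settings, a replicate block and each library left out. The number of collagen genes with a p under 0.05 before adjustment was 3 as reported, 1 to 8 when single libraries were left out, and 8 with the replicate block, under which 7.31% of all features had such a p. Same-numbered libraries deviated from their group means with a correlation of 0.19, -0.05 and 0.24 for replicates 1, 2 and 3. Replicates 1 and 3 correlated best with their own number and replicate 2 did not, and the numbers were not taken to pair libraries. For the pathway lists that count was 4 as reported, 0 without the trend and robust moderation, and 1 to 5 when single libraries were left out. The number of collagen genes without overlap was 6 as reported and 7 to 14 with a library left out, which by construction makes overlap rarer. Over the leave-one-out fits the log2 fold change changed sign for 15 collagen genes: Col9a2 (-0.21 to 0.0012), Col9a1 (-0.13 to 0.033), Col9a3 (-0.20 to 0.042), Col11a2 (-0.25 to 0.020), Col1a2 (-0.027 to 0.25), Col27a1 (-0.15 to 0.032), Col16a1 (-0.18 to 0.060), Col4a1 (-0.098 to 0.21), Col26a1 (-0.054 to 0.18), Col4a2 (-0.045 to 0.19), Col24a1 (-0.010 to 0.30), Col13a1 (-0.12 to 0.14), Col20a1 (-0.28 to 0.023), Col4a6 (-0.077 to 0.093) and Col6a6 (-0.10 to 0.12). In those fits the log2 knockout to wild-type ratio also changed sign for the sums over all collagens (-0.14 to 0.028), fibrillar genes (-0.15 to 0.017), FACIT genes (-0.17 to 0.027), type IV genes (-0.075 to 0.16), the class of Col7a1, Col26a1 and Col28a1 (-0.048 to 0.17) and the chains of types II, IX and XI (-0.20 to 0.0059), and for the chain ratios Col1a2 over Col1a1 (-0.14 to 0.0014), Col11a2 over Col11a1 (-0.085 to 0.17), Col9a3 over Col9a1 (-0.062 to 0.036), Col4a2 over Col4a1 (-0.027 to 0.054), Col6a3 over Col6a1 (-0.14 to 0.079), Col8a2 over Col8a1 (-0.096 to 0.16) and Col3a1 over Col1a1 (-0.035 to 0.29). Under quantile normalization Col6a6 was at -0.017. Col6a1 had a p under 0.05 before adjustment in all 13, which reuse the libraries that gave it the lowest p of the family. Depth is unknown, and 3 libraries a group leave 1.5-fold changes mostly uncalled in simulated data.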
